A study of Mus musculus with 18 samples.

Results

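The spleens of tumour-bearing mice under the code GC were compared with those under the code I, over all genes measured by RNA sequencing of splenocytes. The members are the 3 libraries titled T_GC (numbers 10, 21 and 37) and the 3 titled T_I (numbers 8, 12 and 27), 6 of the 18 libraries of the series. In all, 16635 of 56876 genes had at least 1 TPM (a length-scaled share of a library's transcripts) in at least 3 of the 18 libraries and were tested. T_GC and T_I mice were female Balb/c mice with 4T1 cells, a mouse mammary carcinoma line, implanted in the mammary pad on day 0. The study injected an antibody to G-CSF, an antibody to PD-1 or control IgG into the peritoneum at 10 mg/kg on days 18, 21 and 24, and took splenocytes on day 29. No label spells out a code, so the labels do not tie GC to the G-CSF antibody or I to the control IgG, and nothing below names the agent behind a code. N_GC and N_I, 3 libraries each, carry the same codes without the letter T and serve below as the pair without tumour. The labels conflict: in the treatment tag all T libraries carry anti-PD-1 and all N libraries carry WT, while by the cell-type tag all 18 bear tumours. Groups follow the titles. Whether the libraries of a group come from separate mice is not stated, so the p-values measure a spread between libraries, which may be technical. In the limma fit that spread is pooled over the 6 groups of all 18 libraries, although T_GC libraries varied more than T_I libraries (values below).

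G-CSF, encoded by Csf3, is the cytokine that drives bone marrow progenitors to become neutrophils and releases them into the blood, through a receptor encoded by Csf3r. Many tumours that secrete it, 4T1 among them, fill the mouse spleen with neutrophils and their precursors, which are often called granulocytic myeloid-derived suppressor cells. As neutrophils ripen they make their granules in order: primary (azurophil) granules at the promyelocyte stage, then secondary and tertiary granules, then surface receptors and cytoplasmic proteins of the mature cell. Splenocytes otherwise consist mainly of B cells, T cells, macrophages of the red pulp and of the marginal zone, and, in mice, blood-forming cells.

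In T_GC spleens the transcripts of neutrophils and eosinophils were far lower than in T_I spleens, and those of B cells, T cells, natural killer (NK) cells, dendritic cells and resident macrophages were higher. The 116 genes of 4 neutrophil lists (primary granule, secondary and tertiary granule, calprotectin and stefins, mature neutrophil) took 5.04, 7.81 and 7.42% in T_GC, against 25.9, 26 and 24.6% in T_I. The ranges did not overlap, and with 3 against 3 libraries an exact two-sided permutation test gives p = 0.1, the smallest it can give. In bulk RNA, fewer cells of a type and less RNA per cell cannot be told apart.

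**Figure D1:**
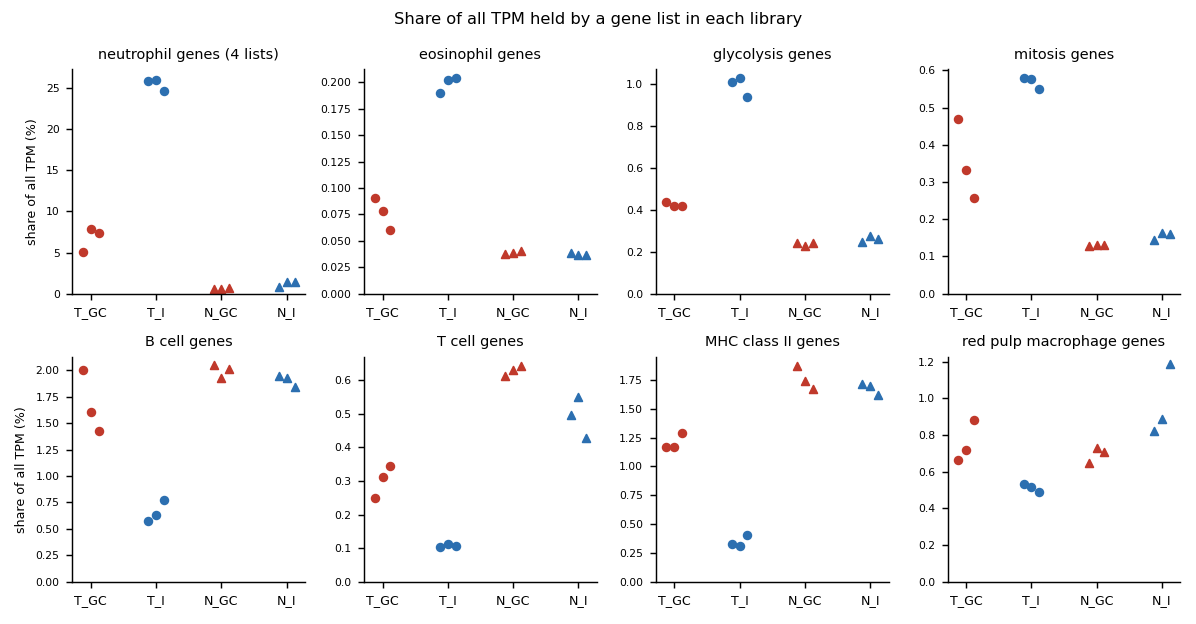
Share of all TPM (percent) that 8 gene lists took in each library of T_GC, T_I, N_GC and N_I, 1 point a library; axes start at 0. Neutrophil genes took 5.04 to 7.81% in T_GC and 24.6 to 26% in T_I, beside means of 0.568% in N_GC and 1.21% in N_I.

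Of the 16635 genes, limma called 61.5% at an adjusted p of 0.05, with 8109 higher in T_GC (48.7% of those tested) and 2115 lower (12.7%). Because TPM is a share of the library, a fall of abundant transcripts raises the values of all others, and the median log2 difference over all genes tested was 0.38. After median-of-ratios scaling, which sets the typical gene equal between libraries, the median was -0.0018, 3851 genes were higher (23.1%) and 4695 lower (28.2%). That scaling moved the differences downward (median shift -0.43), so genes lower in TPM could hardly lose their call. All 2115 of them remained lower, which is therefore no test of those calls. All 3851 genes higher after rescaling were also higher in TPM. The TPM and the rescaled values called 325 genes in opposite directions. Every log2 difference below is T_GC minus T_I on the log2(TPM + 1) scale with its standard error (SE), which understates the change of genes near or under 1 TPM. In 62.4% of all genes the T_GC and T_I values did not overlap. Groups of genes below are given with their counts in TPM and then in rescaled values, to be read against these shares. A count near these shares is no result about its list. The lists were chosen with earlier results of these data known, so their counts are not independent support.

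**Figure D2:**
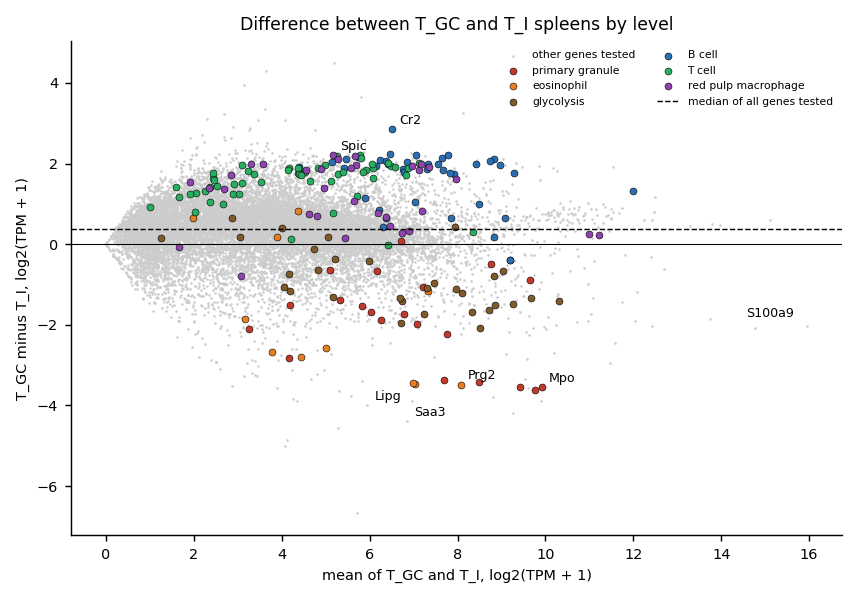
Difference between T_GC and T_I (y axis, log2(TPM + 1)) against the mean level of both groups (x axis, log2(TPM + 1)), 1 point a gene, with 6 gene lists in colour. The dashed line is the median of all genes tested, 0.38; primary granule genes reach -3.63 and Cr2 stands at 2.86.

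The labelled tissue was seen in its markers: the 10 spleen markers summed to between 2128 and 2406 TPM in T_GC and between 598.6 and 810.7 TPM in T_I, and 9 of the 10 passed the filter (Tlx1 did not). Among markers of other cells, fat summed to at most 0.24 TPM and skeletal muscle to at most 0.52 TPM. Of 10 pancreas markers, 6 were at 0 in all 6 libraries and only Cela1, an elastase, was tested; the 10 summed to 32.2, 39.5 and 48.8 TPM in T_GC, against 9.9, 12.5 and 13.2 TPM in T_I. The 7 markers of epithelium and 4T1 cells, 3 of them tested, summed to between 7.68 and 8.42 TPM in T_GC and between 4.8 and 5.7 TPM in T_I. A wider list of 4T1 genes took 0.164, 0.253 and 0.28% in T_GC, against 0.919, 0.899 and 0.854% in T_I, most of it Lcn2, which neutrophils also make. Of its 8 genes tested, 2 were higher, Epcam (0.91 ± 0.17) and Cdh1 (0.50 ± 0.15), and 2 lower, Lcn2 among them (rescaled: 1 and 3). The part of tumour cells in the results was not tested. Correlations of log2 values were 0.953 to 0.964 among T_GC libraries, 0.973 to 0.975 among T_I libraries and 0.904 to 0.932 between the groups. T_GC libraries spread more than T_I libraries (median SD of a gene 0.203 against 0.145 on the log2 scale), and the second principal component of the 6 libraries, with 13.8% of their variance, was 39.9 in T_GC 10, -6.15 in T_GC 21 and -43.9 in T_GC 37. The first component, with 61.6%, separated T_GC from T_I.

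**Figure D3:**
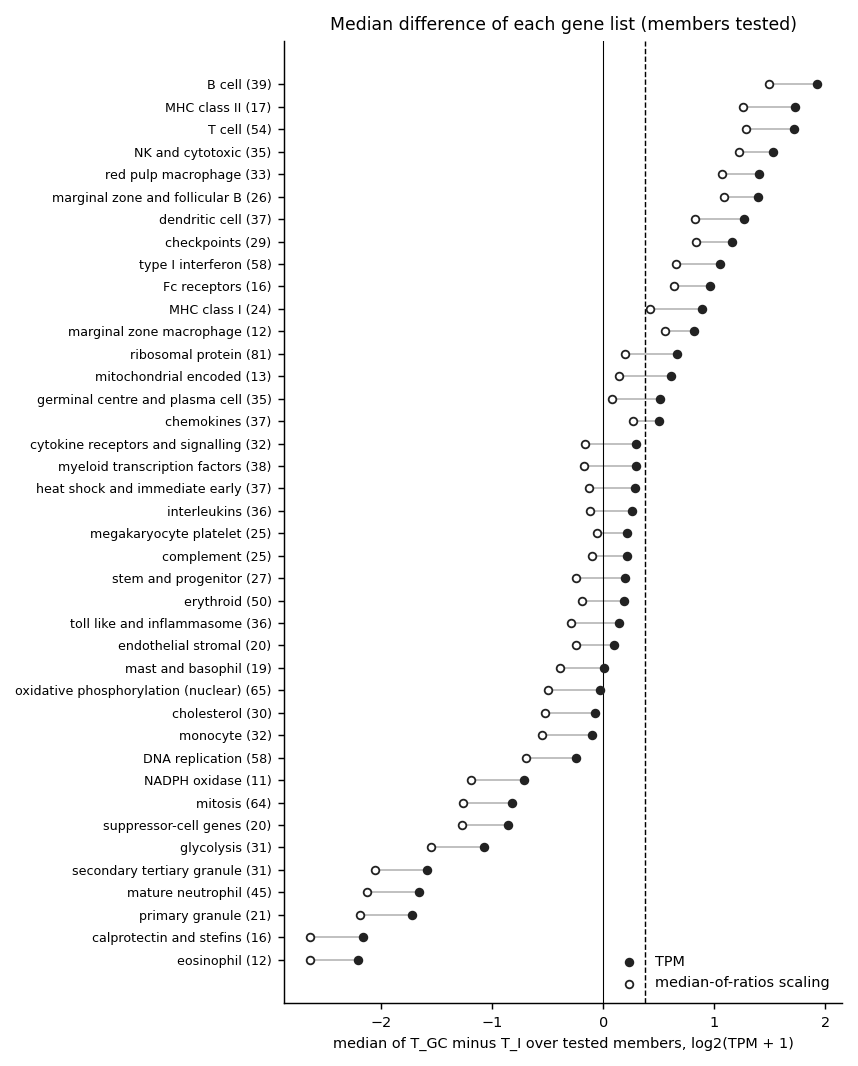
Median log2(TPM + 1) difference between T_GC and T_I over the tested members of each gene list (number in brackets), in TPM (filled) and after median-of-ratios scaling (open). Granulocyte, glycolysis and mitosis lists lie to the left of 0 on both scales and lymphocyte, MHC class II and red pulp macrophage lists to the right of the all-gene median of 0.38 (dashed).

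Genes of the primary granule list were lower in T_GC in all but 1 case. Azurophil genes such as Mpo are transcribed at the promyelocyte stage and shut off in mature neutrophils. The list also holds genes of wider use, such as Calr, a chaperone, and Nkg7, of killer cells. Its count is therefore not particular to that stage. Of 21 tested, 20 were lower and none was higher, with a median of -1.73 (rescaled: 21 lower, median -2.20), against 12.7% lower and a median of 0.38 over all genes. Mpo, the myeloperoxidase that makes hypochlorous acid, was at 189.9, 108 and 164 TPM in T_GC, against 1974, 1916 and 1462 TPM in T_I. Elane, neutrophil elastase, was at 118, 79.1 and 131 TPM in T_GC, against 1385, 1286 and 1096 TPM in T_I. Prtn3, proteinase 3, a serine protease next to Elane on chromosome 10, was at 139.8, 89.8 and 168 TPM in T_GC, against 1816, 1615 and 1384 TPM in T_I. In each of these genes the highest T_GC library lay several times below the lowest T_I library, and T_GC 21 was the lowest of all. The log2 differences were -3.55 ± 0.41 for Mpo (adjusted p = 3.75e-06), -3.54 ± 0.41 for Elane (adjusted p = 4.58e-06) and -3.63 ± 0.38 for Prtn3 (adjusted p = 1.76e-06). Ctsg, the granule protease cathepsin G, differed by -3.42 ± 0.31, and Ms4a3, a membrane protein that marks granulocyte-monocyte progenitors, by -3.36 ± 0.32. Prss57, a further granule protease, was at 4.01, 2.57 and 3.78 TPM in T_GC, against 31.6, 33.2 and 26.1 TPM in T_I, a difference of -2.82 ± 0.19. Smaller falls were seen in Gfi1, a repressor required for neutrophil formation (-1.5 ± 0.13), and in Ap3s1, a subunit of the adaptor that sorts cargo to granules (-1.73 ± 0.10). Ctsc, which encodes the peptidase that activates these proteases, did not pass the test: it was at 117, 92.6 and 110.0 TPM in T_GC, against 125, 91.2 and 89.8 TPM in T_I, with overlapping groups, a difference of 0.07 and of -0.40 after rescaling, when it was called lower.

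The promoters of the 3 azurophil genes that fell together are shown because PU.1, the product of Spi1, is a known activator of primary granule genes. They are the 300 bases from 250 before to 50 after the start given by RefSeq on GRCm38.p6, an earlier build than the GRCm39 of the deposited values, and they lie at chr11:87793534-87793833, chr10:79886062-79886361 and chr10:79879417-79879716, all on the plus strand. Capitals mark the PU.1 core GAGGAAG on either strand.
Mpo: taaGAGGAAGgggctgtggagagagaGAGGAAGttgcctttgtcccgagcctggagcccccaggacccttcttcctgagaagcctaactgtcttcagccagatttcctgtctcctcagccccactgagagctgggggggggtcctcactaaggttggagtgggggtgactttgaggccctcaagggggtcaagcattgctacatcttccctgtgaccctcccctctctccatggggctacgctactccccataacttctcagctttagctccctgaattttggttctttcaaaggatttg
Elane: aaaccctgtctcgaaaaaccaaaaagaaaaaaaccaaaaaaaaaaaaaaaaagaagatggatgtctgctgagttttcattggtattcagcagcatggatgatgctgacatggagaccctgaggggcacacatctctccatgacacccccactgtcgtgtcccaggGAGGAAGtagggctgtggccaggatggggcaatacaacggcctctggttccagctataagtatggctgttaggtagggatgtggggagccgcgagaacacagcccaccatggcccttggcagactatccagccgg
Prtn3: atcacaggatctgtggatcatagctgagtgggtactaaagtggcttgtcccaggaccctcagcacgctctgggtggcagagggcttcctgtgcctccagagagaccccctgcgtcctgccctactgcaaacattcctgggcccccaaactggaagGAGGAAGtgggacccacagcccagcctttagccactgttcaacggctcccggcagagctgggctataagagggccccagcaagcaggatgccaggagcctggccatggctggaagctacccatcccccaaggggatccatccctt
The Mpo promoter held 2 copies, and those of Elane and Prtn3 1 each. Of the 21 tested primary granule genes 17 had a promoter in the table, and 6 of these (35.3%) held GAGGAAG, against 4477 of all 32851 promoters searched (13.6%). The C/EBP motif TTGCNNAA, also searched on both strands, was in 4 of the 17 (23.5%), against 10.8% of all promoters, and in none of the 3 shown. Secondary and tertiary granule promoters had similar shares, with GAGGAAG in 9 of 26 (34.6%) and TTGCNNAA in 7 of 26 (26.9%). A match is a string of letters and does not show that a factor binds. Whether PU.1 has a part in these differences was not tested.

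Secondary and tertiary granule genes, which follow at the myelocyte and later stages, were lower in 28 of 31 cases and higher in 1, with a median of -1.59 (rescaled: 30 lower, 1 higher). Ngp, neutrophilic granule protein, one of the most abundant transcripts of these spleens, was at 5019, 6554 and 6526 TPM in T_GC, against 21219, 22433 and 20993 TPM in T_I. Ltf, lactoferrin, which binds iron, was at 1455, 2251 and 1705 TPM in T_GC, against 7062, 5763 and 7163 TPM in T_I. Neither gene's groups overlapped, and T_GC 10 was the lowest library in both. The differences were -1.85 ± 0.54 for Ngp (adjusted p = 0.00874) and -1.9 ± 0.52 for Ltf (adjusted p = 0.00524). Lcn2, lipocalin 2, which traps bacterial siderophores, differed by -2.03 ± 0.52, Pglyrp1, a peptidoglycan-binding protein, by -2.1 ± 0.19, and Ceacam10 by -2.33 ± 0.25. Camp, the precursor of the antimicrobial peptide cathelicidin, was at 1349.9, 2244 and 2029 TPM in T_GC, against 4905, 4780.4 and 5213 TPM in T_I. Its difference of -1.44 ± 0.56 (adjusted p = 0.0385) lost its call in 8 of 14 alternative analyses (adjusted p from 0.00301 to 0.124), although its groups did not overlap. Leaving out T_GC 10 (-1.22), T_GC 37 (-1.51), T_I 8 (-1.45), T_I 12 (-1.46) or T_I 27 (-1.4) was enough to lose it. Chil3, a chitinase-like protein of neutrophils and monocytes, was at 233, 282 and 799.9 TPM in T_GC, against 782, 1655 and 599.8 TPM in T_I and was not called (difference -1.29 ± 0.64). It was called lower after rescaling (-1.77) and without T_GC 37 (-1.84). The member that rose was B3gnt5, a glycosyltransferase of glycolipid synthesis that B cells also express, at 44.9, 30.9 and 26.2 TPM in T_GC, against 6.99, 7.13 and 11.3 TPM in T_I.

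Calprotectin and stefin genes were lower in 13 of 16 cases and higher in 1 (rescaled: 14 lower, none higher). S100a9, a subunit of the calcium-binding heterodimer calprotectin, was the most abundant transcript of this list, at 18544, 31025 and 26947 TPM in T_GC, against 105550.0, 99018 and 101055 TPM in T_I. Its partner S100a8 was at 7512, 12856 and 12226 TPM in T_GC, against 45389, 44843 and 44451 TPM in T_I. Every T_GC library lay below every T_I library, T_GC 10 was the lowest for both, and the differences were -2.03 ± 0.37 (adjusted p = 0.000253) and -2.09 ± 0.42 (adjusted p = 0.000599). The stefins, cysteine protease inhibitors of mouse neutrophils, fell further but were uneven within groups. Stfa2 was at 21.1, 44.2 and 154 TPM in T_GC, against 782, 2059.8 and 589.6 TPM in T_I. Cstdc5 was at 51.2, 78.8 and 280.4 TPM in T_GC, against 1245, 3134 and 968 TPM in T_I. In both, T_GC 37 was highest in its group and T_I 12 in its own, and the groups still did not overlap. Log2 differences were -4.2 ± 0.58 for Stfa2, -3.89 ± 0.54 for Cstdc5, -3.79 ± 0.59 for Stfa3 and -3.56 ± 0.49 for Cstdc6; these genes are near-identical copies, so how reads were divided among them is uncertain. Among other S100 proteins, S100a6 differed by -2.25 ± 0.14 and S100a11 by -1.34 ± 0.11. S100a10, the annexin A2 partner found in many cell types, was higher by 0.66 ± 0.09 (adjusted p = 2.12e-05), a call lost after rescaling (0.19). S100a4 was at 257, 266 and 205 TPM in T_GC, against 218, 214 and 183 TPM in T_I, not called in TPM as deposited (0.24) or rescaled (-0.23), and called higher without haemoglobin, receptor, ribosomal and mitochondrial genes (0.43).

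Genes of the mature neutrophil list were lower in 39 of 45 cases and higher in 2 (rescaled: 41 lower, 1 higher), with a median of -1.66. This list too was chosen with earlier results known, and it includes Lipg and Prok2, which were near 0 without tumour (values below). Lipg, endothelial lipase, was at 5.31, 4.48 and 9.81 TPM in T_GC, against 126, 119 and 98.2 TPM in T_I. Prok2, prokineticin 2 (also called Bv8), a secreted peptide that G-CSF is known to induce in mouse myeloid cells, was at 5.52, 7.72 and 3.17 TPM in T_GC, against 119, 51.8 and 92.9 TPM in T_I. Ggt1, the gamma-glutamyltransferase of glutathione turnover, was at 2.93, 6.61 and 7.32 TPM in T_GC, against 62.3, 52.7 and 47.9 TPM in T_I. The highest T_GC library of each stood well below the lowest T_I library, and the differences were -4.0 ± 0.20 (adjusted p = 4.78e-09), -3.76 ± 0.27 (adjusted p = 5.95e-08) and -3.13 ± 0.22 (adjusted p = 5.57e-08). Csf3r, the G-CSF receptor itself, was at 254, 384 and 378 TPM in T_GC, against 788, 679 and 737 TPM in T_I, a difference of -1.14 ± 0.27 (adjusted p = 0.00187). Cxcr2, the chemokine receptor that draws neutrophils out of the marrow, was at 99.1, 158 and 154 TPM in T_GC, against 415, 384 and 358 TPM in T_I, a difference of -1.51 ± 0.25 (adjusted p = 0.000128). Both receptor genes separated the groups, by less than the granule proteases did. Ifitm1, an interferon-induced membrane protein that is also high in early progenitors, differed by -2.69 ± 0.26, Wfdc17, a secreted inhibitor of inflammation in mouse, by -2.73 ± 0.23, and Alox15, the 12/15-lipoxygenase, by -2.58 ± 0.25. Il1r2, the decoy receptor for interleukin 1, was at 12.6, 20.4 and 80.1 TPM in T_GC, against 93.5, 269.5 and 66.4 TPM in T_I, groups that overlapped, and was called lower (difference -2.06 ± 0.55, adjusted p = 0.0045), a call lost in a fit of the 6 libraries alone. Il1b, interleukin 1 beta, was at 189.9, 326 and 244 TPM in T_GC, against 408, 214 and 405 TPM in T_I, and was not called (difference -0.41 ± 0.28); after rescaling the difference was -0.88, called lower, and without T_I 12 it was -0.72, also called. Btg2, an antiproliferative gene that lymphocytes also express, was higher by 1.1 ± 0.11.

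Saa3, the acute-phase serum amyloid A that macrophages and neutrophils make in mouse, had the largest fall of all genes that met the naming rule. It was at 4.12, 3.14 and 29.5 TPM in T_GC, against 201, 365 and 79.6 TPM in T_I, a difference of -4.39 ± 0.68 (adjusted p = 6.23e-05), with values that varied widely within each group and T_GC 37 and T_I 12 the highest of theirs. Genes of the NADPH oxidase, the complex by which phagocytes make superoxide, went both ways: 7 of 11 genes were lower and 4 higher (rescaled: 8 lower and 1 higher; the 4 higher became 2 without T_GC 10 or without T_I 12). Ncf1, the organiser p47phox, was at 266, 294 and 278 TPM in T_GC, against 809.7, 857 and 705 TPM in T_I, and Ncf4, p40phox, differed by -1.39 ± 0.11. The catalytic subunit gene Cybb was at 182, 214 and 191 TPM in T_GC, against 452, 422 and 431 TPM in T_I, a difference of -1.15 ± 0.10. Hvcn1, the voltage-gated proton channel that B cells also carry, rose on both scales, at 188, 166 and 188 TPM in T_GC, against 101, 96.9 and 103 TPM in T_I.

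**Figure D4:**
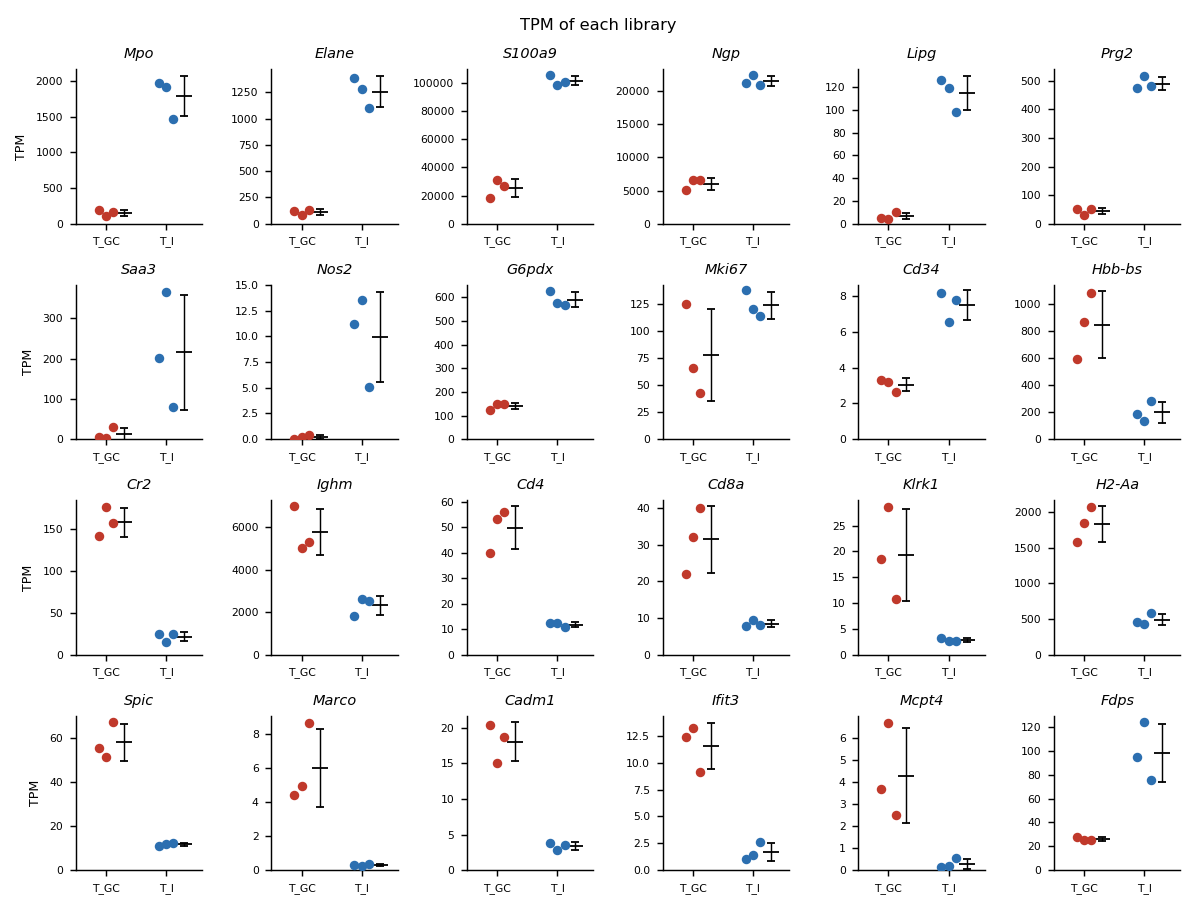
TPM of each library for 24 genes, T_GC on the left of each panel and T_I on the right, with the mean and SD of the 3 libraries beside the points. Axes start at 0 and differ between panels; the groups do not overlap in 23 panels, and in Mki67 T_GC 10 lies within the T_I range.

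Growth factor receptor genes went both ways. Csf3, the ligand gene, was listed at 0.06 TPM in T_GC 10 and at 0 in the other 5 libraries, and was not tested. Of 32 receptors and signalling genes 11 were lower and 16 higher (rescaled: 16 and 9). Csf2ra, the alpha chain of the GM-CSF receptor, was at 233, 251 and 280.1 TPM in T_GC, against 633, 658 and 552 TPM in T_I. Csf2rb, the beta chain shared with the receptors of interleukins 3 and 5, was at 146, 97.1 and 113 TPM in T_GC, against 326, 262 and 238 TPM in T_I. Both separated the groups, with differences of -1.27 ± 0.10 (adjusted p = 7.97e-08) and -1.21 ± 0.19 (adjusted p = 7.19e-05). Kit, the stem cell factor receptor, was at 11.9, 10.4 and 10.7 TPM in T_GC, against 17, 18.4 and 15.7 TPM in T_I, a difference of -0.59 ± 0.14 (adjusted p = 0.00225). On the other side, Csf1r, the M-CSF receptor of monocytes and macrophages, was at 169, 179 and 284 TPM in T_GC, against 106, 89.7 and 91.5 TPM in T_I. Il7r, the interleukin 7 receptor of lymphocytes, was at 59.8, 53.5 and 77.9 TPM in T_GC, against 14.1, 20.2 and 19.1 TPM in T_I. These rose by 1.09 ± 0.20 (adjusted p = 0.000323) and 1.78 ± 0.18 (adjusted p = 9.73e-07). Flt3, the receptor of dendritic cell and lymphoid progenitors, was higher in TPM (0.73 ± 0.21, adjusted p = 0.00788) but not called after rescaling (0.33).

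Transcription factors were divided too, with 13 of 38 lower and 18 higher (rescaled: 15 and 14), beside 12.7% lower and 48.7% higher over all genes tested in TPM. Spi1, which encodes PU.1, was at 224, 236 and 246 TPM in T_GC, against 524, 564 and 489 TPM in T_I, a difference of -1.16 ± 0.09 (adjusted p = 1.02e-07). Nfe2, a basic leucine zipper factor of the erythroid and megakaryocyte lineages, was at 60.1, 73.8 and 69.9 TPM in T_GC, against 233, 234 and 207 TPM in T_I, a difference of -1.71 ± 0.13. Id1, an inhibitor of helix-loop-helix factors, differed by -1.52 ± 0.19. Irf8, which directs progenitors toward monocytes and dendritic cells and away from neutrophils and is also high in B cells, was at 198, 185 and 169 TPM in T_GC, against 61.4, 56 and 69 TPM in T_I. It rose by 1.55 ± 0.08 (adjusted p = 7.21e-09) and its groups did not overlap. Irf4, a factor of activated B cells and plasma cells, was at 86.6, 53.2 and 28.6 TPM in T_GC, against 12.5, 7.42 and 22.1 TPM in T_I, higher by 1.91 ± 0.34. Id3, which restrains E proteins in lymphocytes, rose by 2.06 ± 0.23.

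Genes associated with suppressor cells were lower in 14 of 20 cases and higher in 2, or in 4 without T_I 8 (rescaled: 17 lower and 1 higher). Nos2, the inducible nitric oxide synthase, was at 0.02, 0.18 and 0.43 TPM in T_GC, against 11.2, 13.6 and 5.03 TPM in T_I, a difference of -3.09 ± 0.28 (adjusted p = 4.61e-07), with all T_GC libraries below 1 TPM. Nos2 therefore passed the filter only through other libraries, those of T_I among them, as did every tested gene under 1 TPM throughout 1 group. The call of such a gene is not independent of the filter. Arg1, arginase 1, was at 0.06, 0.13 and 1.04 TPM in T_GC, against 1.16, 13.1 and 0.42 TPM in T_I; the groups overlapped, T_I 12 stood apart and the difference of -1.38 ± 0.60 was not called. It was called lower after rescaling (-1.61) and without T_I 27 (-2.04). Clec5a, a myeloid lectin receptor, differed by -1.93 ± 0.21. Cd274, which encodes PD-L1, the ligand of PD-1, went the other way: it was at 17.8, 21.8 and 17.2 TPM in T_GC, against 6.34, 4.2 and 6.07 TPM in T_I, higher by 1.62 ± 0.12 (adjusted p = 7.15e-08).

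Glycolysis and pentose phosphate genes, on which neutrophils depend for energy and for the NADPH of the oxidase, were lower in 24 of 31 cases and higher in 1 (rescaled: 26 lower, none higher; 3 higher without T_GC 37 and 2 without T_GC 21, T_I 8 or T_I 27), with a median of -1.08. Together they took 0.426% ± 0.01 in T_GC and 0.995% ± 0.05 in T_I of all TPM (SD, n = 3 each). G6pdx, glucose-6-phosphate dehydrogenase, the entry to the pentose phosphate pathway, was at 124, 149 and 147 TPM in T_GC, against 628, 575 and 570.0 TPM in T_I. Pgd, the next NADPH-producing enzyme, was at 188, 215 and 206 TPM in T_GC, against 667, 633 and 599.6 TPM in T_I. Tkt, transketolase, was at 230.4, 244 and 248 TPM in T_GC, against 692, 736 and 635 TPM in T_I. All 3 separated the groups with little spread inside them, by -2.07 ± 0.11 (adjusted p = 4.78e-09), -1.64 ± 0.09 (adjusted p = 7.22e-09) and -1.51 ± 0.08 (adjusted p = 4.78e-09). Pkm, pyruvate kinase, was lower, with a difference of -1.34 ± 0.06. Slc2a3, the high-affinity glucose transporter GLUT3, differed by -1.41 ± 0.11. Pdk1, a kinase that inhibits pyruvate dehydrogenase, was higher in TPM (0.64 ± 0.13) and not called after rescaling (0.24). Alas1, the housekeeping enzyme that begins haem synthesis, was lower, at 103, 88.3 and 92.1 TPM in T_GC, against 492, 468 and 379.9 TPM in T_I, a difference of -2.22 ± 0.09 (adjusted p = 1.14e-09).

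Genes of the eosinophil list had the lowest median of all lists, -2.22, with 8 of 12 lower and 2 higher (rescaled: 9 lower, none higher). Only 1 was higher without T_GC 10, T_GC 21 or T_I 8. Beside granule genes the list holds others, such as Siglecf, Ccr3, Il5ra and Gata1. Prg2, the eosinophil major basic protein, was at 51.6, 31 and 49.6 TPM in T_GC, against 473, 516 and 482 TPM in T_I. The eosinophil-associated ribonucleases Ear1 and Ear6, copies of one another whose reads may be divided uncertainly, were lower as well. Ear1 was at 24.7, 10.8 and 31.5 TPM in T_GC, against 216, 247 and 249 TPM in T_I. Ear6 was at 27.2, 11.6 and 25.6 TPM in T_GC, against 228, 246 and 215 TPM in T_I. T_GC libraries held at most 51.6 TPM of Prg2, and T_GC 21 was the lowest for all 3 genes, as for the azurophil proteases. The differences were -3.48 ± 0.34 (adjusted p = 8.33e-07), -3.47 ± 0.37 (adjusted p = 2.08e-06) and -3.45 ± 0.29 (adjusted p = 2.2e-07). Siglecf, the surface lectin by which mouse eosinophils are sorted, was at 2.66, 2.58 and 3.38 TPM in T_GC, against 13.7, 12.7 and 12.5 TPM in T_I, a difference of -1.85 ± 0.14. Prg3, a Prg2 paralogue, differed by -2.68 ± 0.31. Il5ra, the interleukin 5 receptor, which B-1 cells also carry, and Ccr3, the eotaxin receptor, were higher in TPM, by 0.64 ± 0.24 and 0.82 ± 0.22, and neither was called after rescaling (0.30 and 0.38). The Il5ra groups overlapped, and its call was also lost without T_GC 10 (0.37), T_GC 21 (0.63) or T_I 8 (0.44). Mast cell and basophil genes were mixed, with 7 of 19 higher (4 without T_I 8) and 3 lower (rescaled: 4 higher and 8 lower). The mast cell proteases Mcpt4 and Mcpt1 were higher. Mcpt4 was at 3.68, 6.66 and 2.49 TPM in T_GC, against 0.12, 0.17 and 0.53 TPM in T_I. Mcpt1 was at 5.31, 9.1 and 1.03 TPM in T_GC, against 0.07, 0.19 and 0.6 TPM in T_I. They rose by 1.99 ± 0.29 (adjusted p = 3.18e-05) and 2.0 ± 0.43 (adjusted p = 0.001). Basophil protease genes were not called: Mcpt8 was at 108, 68.7 and 85.6 TPM in T_GC, against 96.6, 134 and 117 TPM in T_I. Prss34 was at 86.2, 54.7 and 80.8 TPM in T_GC, against 111, 150.1 and 122 TPM in T_I. After rescaling both were called lower (-0.88 and -1.26). Hdc, the histamine-forming enzyme that neutrophils of tumour-bearing mice also express, was lower, with a difference of -1.66 ± 0.28.

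Progenitor genes were split, with 8 of 27 lower (5 without T_GC 37) and 9 higher (rescaled: 10 and 2). Cd34, a sialomucin of blood progenitors and vessels, was at 3.3, 3.2 and 2.62 TPM in T_GC, against 8.18, 6.57 and 7.79 TPM in T_I, a difference of -1.07 ± 0.17 (adjusted p = 7.73e-05). Hoxa9, a homeobox gene of early progenitors, was at 0.89, 1.45 and 0.5 TPM in T_GC, against 3.79, 4.69 and 3.11 TPM in T_I, a difference of -1.34 ± 0.27. Slamf1, which marks stem cells and also lymphocytes, was higher by 1.41 ± 0.18, and Procr, the protein C receptor of stem cells and endothelium, by 0.66 ± 0.21, a call lost after rescaling (0.41).

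Mitosis genes were lower in 57 of 64 cases and higher in none (rescaled: all 64 lower), with a median of -0.82. The count depended on the libraries: 64 were lower without T_GC 10, 40 without T_GC 37 and 33 in a fit of the 6 libraries alone. Mki67, the proliferation antigen Ki-67, was at 126, 65.5 and 42.5 TPM in T_GC, against 138, 121 and 114 TPM in T_I, so that T_GC 10 lay within the T_I range and T_GC 37 far below it. Its difference of -0.80 ± 0.29 (adjusted p = 0.0244) lost its call in 6 of 15 alternative analyses (adjusted p from 0.000336 to 0.137), among them those without T_GC 21 (-0.75), T_GC 37 (-0.44) and T_I 8 (-0.73). Ube2c, the ubiquitin-conjugating enzyme of the anaphase-promoting complex, was at 126, 87.8 and 64.8 TPM in T_GC, against 214, 218 and 199 TPM in T_I. Aurka, Aurora kinase A, was at 27.8, 20 and 12.7 TPM in T_GC, against 49.4, 45.3 and 39.3 TPM in T_I. Both separated the groups while keeping the same order among T_GC libraries, with differences of -1.22 ± 0.19 and -1.17 ± 0.19. Hmgb2, a chromatin protein of dividing cells, differed by -1.18 ± 0.13. Of DNA replication genes, 17 of 58 were lower and 2 higher (rescaled: 51 lower, none higher; 39 lower and none higher without T_GC 10, and 9 higher without T_GC 37). Rrm2, the ribonucleotide reductase subunit made in S phase, was at 89.6, 69.3 and 42.8 TPM in T_GC, against 141, 134 and 129 TPM in T_I, a difference of -1.05 ± 0.21. Pcna, the sliding clamp, was at 263, 203 and 143 TPM in T_GC, against 224, 196 and 223 TPM in T_I. Mcm7, a helicase subunit, was at 129, 101 and 74 TPM in T_GC, against 119.6, 107 and 124 TPM in T_I; neither was called, and T_GC 10 exceeded every T_I library in both. Both were called lower after rescaling (-0.59 and -0.71) and without T_GC 10 (-0.32 and -0.43). The whole mitosis list took 0.468, 0.333 and 0.258% in T_GC, against 0.58, 0.578 and 0.551% in T_I of TPM. The T_GC libraries stood in the same order on the second principal component, and the link between them was not tested.

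Erythroid genes were higher in 16 of 50 cases (10 without T_I 12) and lower in 1, and mostly uncalled (rescaled: 5 higher and 6 lower). Of the adult beta globins, Hbb-bs was at 593, 862 and 1083 TPM in T_GC, against 186, 130.4 and 282 TPM in T_I. Hbb-bt was at 41.7, 72.6 and 103 TPM in T_GC, against 17, 5.5 and 17 TPM in T_I. They rose by 2.11 ± 0.51 (adjusted p = 0.00231) and 2.42 ± 0.54 (adjusted p = 0.00127), and as near-identical copies they may share reads. Car2, carbonic anhydrase 2, of red cell precursors, was at 174, 160.0 and 94.2 TPM in T_GC, against 169.9, 80.5 and 176 TPM in T_I, with overlapping groups. It was not called, and the difference of 0.04 became -0.43 after rescaling. Of 25 megakaryocyte and platelet genes 6 were higher and 7 lower (rescaled: 2 and 7). Selp, P-selectin, which platelets and endothelium store in granules, was at 1.32, 3.55 and 2.41 TPM in T_GC, against 13.2, 12.1 and 13.1 TPM in T_I, a difference of -2.06 ± 0.27 (adjusted p = 1.21e-05). Pf4, platelet factor 4, was at 17.3, 23 and 31.3 TPM in T_GC, against 13.5, 13.1 and 27.8 TPM in T_I and was not called (difference 0.42, rescaled -0.03). Itgb3, the beta chain of the platelet fibrinogen receptor, rose by 1.01 ± 0.11.

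Of 32 monocyte genes, 13 were higher and 10 lower (rescaled: 9 and 16). Of genes known from the non-classical, patrolling subset, Cd300e, an activating receptor, was at 9.67, 10.9 and 5.2 TPM in T_GC, against 1.78, 0.95 and 1.45 TPM in T_I. Pou2f2, the octamer factor OCT-2, which B cells share, was at 50.7, 35.5 and 30.5 TPM in T_GC, against 9.41, 8.59 and 12.4 TPM in T_I. Treml4 was at 68.2, 64.1 and 68 TPM in T_GC, against 36.1, 26 and 32.1 TPM in T_I. Their differences were 1.96 ± 0.27, 1.82 ± 0.17 and 1.08 ± 0.17, each without overlap. Nr4a1, the nuclear receptor that this subset needs, rose by 1.41 ± 0.17. The subset's genes did not all rise. Spn, which encodes CD43, was at 93.7, 90.8 and 77.1 TPM in T_GC, against 90.5, 90.9 and 85.5 TPM in T_I, with no call in TPM and a lower one after rescaling (-0.50). Itgal, the integrin chain of LFA-1, was at 101, 122 and 109 TPM in T_GC, against 136, 110.0 and 123 TPM in T_I, with the same calls (rescaled -0.62). Fcgr4, an activating Fc receptor, was lower by both (-0.78 ± 0.20, adjusted p = 0.00312). Chosen after their values were seen, Ace was higher (2.1 ± 0.39) and Cx3cr1, a chemokine receptor of this subset, was not called (0.32 ± 0.31). Lyz2, lysozyme M of all myeloid cells, was at 2151, 2960.3 and 2772 TPM in T_GC, against 7055, 5010.4 and 5946 TPM in T_I, a difference of -1.19 ± 0.18 (adjusted p = 5.24e-05). F13a1, a coagulation factor of classical monocytes and platelets, was called lower (-0.95 ± 0.26) with overlapping groups. Ccr2, the receptor that brings classical monocytes out of the marrow, was at 59.7, 53.7 and 52.3 TPM in T_GC, against 80, 65.8 and 59.5 TPM in T_I, and was not called (difference -0.30 ± 0.16; rescaled -0.76, called lower).

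Red pulp macrophages take up old red cells and recycle their iron, and 26 of 33 of their genes were higher in T_GC, with 1 lower and a median of 1.41 (rescaled: 20 higher and 2 lower; none lower without T_GC 10, T_I 8 or T_I 27). Spic, the factor that makes these cells, was at 55.2, 51.4 and 67.2 TPM in T_GC, against 11.1, 11.7 and 12.3 TPM in T_I. It rose by 2.21 ± 0.17 (adjusted p = 7.66e-08) with no overlap. Itgad, integrin alpha D, was at 65.1, 57.2 and 129 TPM in T_GC, against 17.4, 17.6 and 14.3 TPM in T_I. Axl, a receptor for apoptotic cells, was at 76.9, 68.2 and 98.1 TPM in T_GC, against 23.6, 18.3 and 18 TPM in T_I. C1qb, a chain of complement C1q, was at 182, 164 and 351 TPM in T_GC, against 55.5, 62.4 and 46.1 TPM in T_I. T_GC 37 was the highest library in each of these 3, and the differences were 2.19 ± 0.26, 1.96 ± 0.19 and 1.99 ± 0.24. Slc40a1, ferroportin, the iron exporter, was at 114, 131 and 151 TPM in T_GC, against 111, 100.5 and 103 TPM in T_I, which gave no call (difference 0.32 ± 0.18; rescaled -0.15), except in TPM without haemoglobin, receptor, ribosomal and mitochondrial genes (0.51, higher). Adgre1, which encodes F4/80, was higher by 0.75 ± 0.19 in TPM and not called after rescaling (0.30). Marginal zone macrophage genes were higher in 9 of 12 cases and lower in 1 (rescaled: 7 and 1; none lower without T_GC 21, T_GC 37 or any 1 of the T_I libraries). Marco, the scavenger receptor of that zone, was at 4.45, 4.97 and 8.67 TPM in T_GC, against 0.3, 0.23 and 0.38 TPM in T_I, a rise of 2.39 ± 0.25 (adjusted p = 1.96e-06). Siglec1, sialoadhesin of the metallophilic macrophages, was at 4.29, 3.38 and 6.06 TPM in T_GC, against 0.83, 1.02 and 0.82 TPM in T_I, a rise of 1.53 ± 0.29. Nr1h3, the liver X receptor alpha on which marginal zone macrophages depend, was at 3.16, 2.15 and 9.17 TPM in T_GC, against 1.43, 0.55 and 0.38 TPM in T_I, a rise of 1.56 ± 0.44 with T_GC 37 far above the others. The sinus endothelium showed the same direction in Stab2, a hyaluronan receptor, at 20.6, 20.3 and 25.2 TPM in T_GC, against 4.79, 4.38 and 4.17 TPM in T_I, and in Pecam1, higher by 1.62 ± 0.11, although of 20 endothelial and stromal genes 4 were higher and 4 lower (rescaled: 3 and 5). Complement genes were divided, 10 of 25 higher and 5 lower (rescaled: 7 and 8). C3, the central component, was at 114, 138 and 121 TPM in T_GC, against 566, 468 and 423 TPM in T_I, a difference of -1.95 ± 0.21. C5ar1, the receptor of the anaphylatoxin C5a, differed by -1.52 ± 0.14, against a rise of 1.91 ± 0.25 in C1qa.

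Dendritic cell genes were higher in 29 of 37 cases and lower in 2 (rescaled: 26 and 4), with a median of 1.27. The genes named here mark the cross-presenting, plasmacytoid and mature cells, and not every gene of the list rose. In TPM, Clec10a, Clec4a4, Esam and Notch2 were not called and Sirpa was lower, while Irf4 and Cd209a were higher. The list also holds genes that lymphocytes express, such as Cd4, Cd8a and Ccr7, so its count is not particular to dendritic cells. Cadm1, an adhesion molecule of the cross-presenting subset, was at 20.4, 15.1 and 18.7 TPM in T_GC, against 3.8, 2.77 and 3.54 TPM in T_I. Xcr1, the chemokine receptor of that subset, was at 1.98, 1.14 and 1.62 TPM in T_GC, against 0.46, 0.34 and 0.41 TPM in T_I. Siglech, a lectin of plasmacytoid dendritic cells, was at 12.1, 14.8 and 8 TPM in T_GC, against 3.04, 2.62 and 1.53 TPM in T_I. Fscn1, the actin bundler of mature dendritic cells, was at 24.9, 22.9 and 24.9 TPM in T_GC, against 4.41, 3.83 and 5.35 TPM in T_I. No group overlapped, and the differences were 2.12 ± 0.23, 0.87 ± 0.17, 1.89 ± 0.21 and 2.2 ± 0.15. Ffar2, a short-chain fatty acid receptor that neutrophils carry too, was lower, with a difference of -0.97 ± 0.18.

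Genes of MHC class II presentation, which B cells, dendritic cells and macrophages use to show antigen to CD4 T cells, were higher in 16 of 17 cases and lower in none (rescaled: 15 higher), with a median of 1.72. They took 1.17, 1.17 and 1.29% in T_GC, against 0.33, 0.313 and 0.404% in T_I of all TPM. H2-Aa, the alpha chain of I-A, was at 1572, 1844 and 2071 TPM in T_GC, against 455, 434 and 581 TPM in T_I. H2-Eb1, the beta chain of I-E, was at 1327, 1482 and 1567 TPM in T_GC, against 360.4, 338 and 455 TPM in T_I. Ciita, the master activator of the family, was at 56.6, 50.2 and 52.2 TPM in T_GC, against 15, 11.4 and 15.3 TPM in T_I. The groups did not overlap for any of the 3 genes, and the differences were 1.9 ± 0.13 (adjusted p = 5.1e-08), 1.93 ± 0.12 (adjusted p = 2.55e-08) and 1.87 ± 0.10 (adjusted p = 8.66e-09). The promoters of the first 2 genes, RefSeq on GRCm38.p6 as above, lie at chr17:34287774-34288073 on the minus strand and chr17:34305617-34305916 on the plus strand. They are shown because the genes moved together and class II promoters are known for a Y box, whose core ATTGG is in capitals on either strand.
H2-Aa: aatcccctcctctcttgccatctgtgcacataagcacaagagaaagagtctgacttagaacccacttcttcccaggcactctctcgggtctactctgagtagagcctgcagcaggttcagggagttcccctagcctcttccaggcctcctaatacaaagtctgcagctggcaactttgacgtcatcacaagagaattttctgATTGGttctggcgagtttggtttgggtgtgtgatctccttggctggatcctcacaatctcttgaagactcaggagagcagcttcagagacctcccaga
H2-Eb1: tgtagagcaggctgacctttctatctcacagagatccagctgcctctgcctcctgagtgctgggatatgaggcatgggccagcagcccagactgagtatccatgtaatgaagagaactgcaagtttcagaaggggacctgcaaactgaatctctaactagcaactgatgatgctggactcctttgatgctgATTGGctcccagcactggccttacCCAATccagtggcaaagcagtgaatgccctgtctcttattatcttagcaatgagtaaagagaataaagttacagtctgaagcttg
H2-Aa held 1 copy and H2-Eb1 2. A promoter was found for 13 class II genes, of which 9 (69.2%) held ATTGG, against 12289 of 32851 promoters (37.4%). Class I genes had a smaller median, with 20 of 24 higher and 2 lower and 0.89 as the median (rescaled: 17 and 3, median 0.42; 1 lower without T_GC 21, T_GC 37 or T_I 8). Nlrc5, the class I activator, was at 59.6, 54 and 52.9 TPM in T_GC, against 14.9, 19.1 and 14.9 TPM in T_I, a rise of 1.72 ± 0.10. H2-K1, a classical heavy chain, rose by 1.08 ± 0.08 and the non-classical H2-M3 by 1.6 ± 0.10, with H2-K1 read sharing among class I genes uncertain. Calr, the chaperone calreticulin, was lower, with a difference of -0.48 ± 0.11.

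B cell genes had the highest median of all lists, 1.92, with 38 of 39 higher and none lower (rescaled: 34 higher and 2 lower, median 1.49; 1 lower without T_GC 10 or T_GC 21). They took 2, 1.61 and 1.43% in T_GC, against 0.578, 0.631 and 0.768% in T_I of all TPM. Ighm, the IgM heavy chain, was at 6995, 5034 and 5282 TPM in T_GC, against 1804, 2627 and 2525 TPM in T_I. T_GC 10 was the highest library of its group, and the difference was 1.32 ± 0.14 (adjusted p = 1.65e-06). Genes of marginal zone and follicular B cells rose in 21 of 26 cases and fell in 3 (rescaled: 18 and 4). Cr2, which encodes complement receptors CD21 and CD35 and is densest on marginal zone B cells, was at 141, 176 and 156 TPM in T_GC, against 24.9, 14.9 and 24.3 TPM in T_I. It had the largest rise of the genes that met the naming rule, 2.86 ± 0.19 (adjusted p = 2.69e-08), followed by Dtx1, a Notch target of marginal zone B cells, at 90, 91.5 and 119.9 TPM in T_GC, against 14.4, 17 and 15.9 TPM in T_I. Asb2, a ubiquitin ligase subunit that Notch also induces, rose by 2.28 ± 0.16, Tnfrsf13c, the receptor of the survival factor BAFF, by 2.24 ± 0.14, and Fcer2a, the low-affinity IgE receptor of follicular B cells, by 1.86 ± 0.25. Cd9, a tetraspanin of marginal zone B cells, platelets and granulocytes, was lower, at 75.7, 107 and 95.6 TPM in T_GC, against 221, 203 and 207 TPM in T_I.

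Plasma cell and germinal centre genes were mixed: 20 of 35 were higher and 8 lower, or 5 lower without T_I 8 (rescaled: 8 higher and 10 lower). Jchain, the joining chain of secreted IgM and IgA, was at 531, 528 and 616 TPM in T_GC, against 272, 279 and 249.8 TPM in T_I, a rise of 1.06 ± 0.12. Ighe, the IgE heavy chain, was lower: it was at 3.62, 2.47 and 5.11 TPM in T_GC, against 17.9, 22.6 and 31.9 TPM in T_I, a difference of -2.41 ± 0.38 (adjusted p = 6.85e-05). Ighg1 was at 255, 125 and 666 TPM in T_GC, against 668, 288 and 225 TPM in T_I, varied widely in both groups and was not called. Xbp1, the secretory factor of plasma cells, was lower, with a difference of -0.47 ± 0.11.

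T cell genes were higher in 51 of 54 cases and lower in none (rescaled: 49 higher and 1 lower), with a median of 1.72. They took 0.249, 0.312 and 0.345% in T_GC, against 0.104, 0.111 and 0.107% in T_I of all TPM. Cd4 was at 40.1, 53.3 and 56 TPM in T_GC, against 12.4, 12.3 and 10.8 TPM in T_I. Cd8a was at 22.1, 32.2 and 40.1 TPM in T_GC, against 7.78, 9.54 and 8.06 TPM in T_I. T_GC 10 was the lowest of its group for both co-receptors, the reverse of its place for Ighm, and still lay above all T_I libraries. The differences were 1.97 ± 0.15 (adjusted p = 9.99e-08) and 1.74 ± 0.17 (adjusted p = 9.84e-07). Foxp3, the factor of regulatory T cells, was at 10.8, 9.71 and 11 TPM in T_GC, against 3.53, 3.9 and 4.27 TPM in T_I, a rise of 1.23 ± 0.15. Lef1, a factor of naive T cells, was almost equal across T_GC libraries, at 61.5, 61.8 and 62.1 TPM in T_GC, against 13.3, 10.3 and 15 TPM in T_I, and rose by 2.19 ± 0.15. Cd28, the co-stimulatory receptor, rose by 1.97 ± 0.18.

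NK and cytotoxic genes were higher in 32 of 35 cases and lower in 1 (rescaled: 28 and 1), with a median of 1.53. Klrk1, which encodes the activating receptor NKG2D, was at 18.4, 28.6 and 10.8 TPM in T_GC, against 3.31, 2.61 and 2.65 TPM in T_I. Ncr1, the defining natural cytotoxicity receptor, was at 16.9, 24.1 and 11.7 TPM in T_GC, against 5.26, 3.35 and 4.28 TPM in T_I. T_GC 21 was highest and T_GC 37 lowest among the T_GC libraries for both. Klrk1 rose by 2.3 ± 0.30 (adjusted p = 1.31e-05) and Ncr1 by 1.77 ± 0.29 (adjusted p = 9.2e-05). Gzmb, granzyme B, rose by 1.28 ± 0.23, Ccl5, a chemokine of memory CD8 T and NK cells, by 2.2 ± 0.24, and Il2rb, the interleukin 2 and 15 receptor chain, by 2.05 ± 0.11. Nkg7, a granule membrane protein of killer cells that also sits in the primary granule list, was the exception, at 48.4, 54.2 and 61.2 TPM in T_GC, against 100.4, 81.6 and 79.2 TPM in T_I.

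Checkpoint and co-stimulatory genes rose in 22 of 29 cases and fell in 4, with the same counts after rescaling. Pdcd1, which encodes PD-1, was at 4.26, 2.6 and 3.35 TPM in T_GC, against 0.73, 1.17 and 0.97 TPM in T_I, a rise of 1.16 ± 0.16 (adjusted p = 2.35e-05). Vsir, the checkpoint ligand VISTA, which is dense on myeloid cells, was at 133, 131 and 152 TPM in T_GC, against 348, 362 and 297 TPM in T_I, a difference of -1.27 ± 0.12 (adjusted p = 8.89e-07). Nectin2, a ligand of TIGIT, was lower at 1.2, 0.49 and 0.57 TPM in T_GC, against 3.77, 3.59 and 2.05 TPM in T_I, and Cd47, the signal that restrains phagocytosis, was lower, with a difference of -0.36 ± 0.06. As a summed share of TPM these genes took 0.118% ± 0.0057 in T_GC and 0.116% ± 0.00309 in T_I (SD; exact two-sided permutation p = 0.4, n = 3 each).

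Type I interferon-stimulated genes rose in 47 of 58 cases and fell in 2 (rescaled: 35 and 4), with a median of 1.05 (rescaled 0.65). Ifit3, an antiviral protein of the IFIT complex, was at 12.4, 13.2 and 9.11 TPM in T_GC, against 1, 1.41 and 2.65 TPM in T_I, a rise of 2.26 ± 0.32 (adjusted p = 3.03e-05). Ifi203, a nucleic acid sensor family member, rose by 1.95 ± 0.12 and Phf11b by 1.95 ± 0.14; both have close copies, so read assignment is uncertain. The classical antiviral enzyme gene Oas2 was at 21.7, 25.5 and 19.4 TPM in T_GC, against 34.5, 21.6 and 37.7 TPM in T_I, and was not called, though it was called lower after rescaling (-0.90). Ifitm3, which blocks viral entry and is high in neutrophils, was at 259, 383 and 332 TPM in T_GC, against 1009.8, 783 and 927 TPM in T_I, a difference of -1.49 ± 0.19, and Slfn1 differed by -0.85 ± 0.12.

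Pattern receptors went both ways as well: 14 of 36 toll-like and inflammasome genes were higher and 11 lower (rescaled: 10 and 17). Tlr9, the DNA sensor of B cells and plasmacytoid dendritic cells, was at 40.6, 30.6 and 27.7 TPM in T_GC, against 8.52, 6.66 and 9.2 TPM in T_I. Cd180, a B cell toll-like homologue, was at 65.9, 53.1 and 43 TPM in T_GC, against 15.6, 10.6 and 15.8 TPM in T_I. Tlr2, the lipoprotein receptor of myeloid cells, was at 14.2, 15.6 and 13.2 TPM in T_GC, against 36, 26.7 and 26.5 TPM in T_I. Nlrp12, an inhibitory sensor of neutrophils, was at 7.51, 10.6 and 11 TPM in T_GC, against 21.3, 19.4 and 24.4 TPM in T_I. The first pair rose by 1.89 ± 0.14 and 1.87 ± 0.16, and the second pair differed by -0.99 ± 0.13 and -1.1 ± 0.21. Of 37 chemokines and receptors 19 were higher and 4 lower (rescaled: 15 and 7). Over all genes tested 48.7% were higher and 12.7% lower (rescaled: 23.1% and 28.2%). The higher count in TPM was thus near the share of all genes, as it was for the interleukins that follow. The largest rise of the chemokine list was in Ccr7, a chemokine receptor of lymph node homing (2.21 ± 0.12). Among 36 interleukins and receptors 17 were higher and 8 lower (rescaled: 17 and 12), Il36g, an epithelial and myeloid member of the interleukin 1 family, being lower at 36.4, 56.3 and 40.6 TPM in T_GC, against 149, 110.3 and 126 TPM in T_I. Fc receptors were higher in 9 of 16 cases and lower in 3 (rescaled: 8 and 5): Fcmr, the IgM receptor of B cells, rose by 2.21 ± 0.18, while Fcgr3, the activating IgG receptor of myeloid and NK cells, differed by -1.05 ± 0.15.

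Cholesterol genes went both ways in TPM, and most were lower after rescaling, when 28.2% of all genes were lower. Of 30 cholesterol genes 8 were higher and 7 lower, or 12 lower without T_GC 10 (rescaled: 3 and 21, median -0.53; without neutrophil genes: 3 and 18). Fdps, farnesyl diphosphate synthase, was at 27.7, 25.4 and 25.1 TPM in T_GC, against 95.1, 125 and 75.9 TPM in T_I, a difference of -1.85 ± 0.12 (adjusted p = 3.29e-08). Mylip, a ubiquitin ligase of lipid uptake, rose by 1.44 ± 0.10, and Abca1, the cholesterol exporter, by 1.2 ± 0.18; liver X receptors induce both. Scd1, the desaturase that makes monounsaturated fatty acids, was at 208, 185 and 212 TPM in T_GC, against 39.5, 35.7 and 49 TPM in T_I, a rise of 2.26 ± 0.15 (adjusted p = 3.47e-08).

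Heat shock and immediate early genes were higher in 17 of 37 cases and lower in 4, or 7 lower without T_GC 37 (rescaled: 10 and 15). Over all genes tested 48.7% were higher and 12.7% lower in TPM. The inducible HSP70 copy Hspa1a, which shares nearly all its sequence with Hspa1b, was at 0.55, 0.58 and 0.39 TPM in T_GC, against 4.19, 10.2 and 2.01 TPM in T_I, a difference of -1.89 ± 0.44, while Egr3, a factor induced through antigen receptors, rose by 1.98 ± 0.21 and Dusp2, a phosphatase of activated lymphocytes, by 2.02 ± 0.17. Ribosomal protein genes were higher in 80 of 81 cases in TPM, but in 22 after rescaling, with 3 lower, and their share was 12.2% ± 1.47 in T_GC and 7.59% ± 0.187 in T_I. Of 13 genes encoded in mitochondria 9 were higher (rescaled: 1), and of 65 nuclear genes of oxidative phosphorylation 10 were higher (6 without T_GC 10 or T_I 8) and 13 lower, a balance that moved to none higher and 56 lower after rescaling.

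The same codes without tumour show which of these differences also stood without tumour. The interaction, T_GC minus T_I less N_GC minus N_I, was positive in 5564 genes (33.4% of those tested) and negative in 1153 (6.93%) at an adjusted p of 0.05. The N values entered the counts above only through the filter, the shared error and, for rescaled counts, the scaling factors. After median-of-ratios scaling it was positive in 2341 genes (14.1%) and negative in 3194 (19.2%), so list counts below are given both ways. Of 21 primary granule genes, 12 had a negative interaction and none a positive one (rescaled: 14 negative). Among the negative ones were Prss57 (-2.61, adjusted p = 7.59e-06), Ap3s1 (-1.5, adjusted p = 6.11e-06) and Gfi1 (-1.78, adjusted p = 1.04e-05). Mpo, Elane and Prtn3 also had lower means under code GC without tumour, with N_GC means under 1 TPM. There log2(TPM + 1) understates the difference without tumour, which also moves the interaction downward. The interactions of these genes therefore do not show which difference was larger. Mpo averaged 0.977 ± 0.0874 TPM in N_GC and 23.5 ± 13.7 TPM in N_I (SD, n = 3 each, as below), a difference of -3.4 beside -3.55 with tumour, and the interaction of -0.15 was not called (adjusted p = 0.86). Elane averaged 0.777 ± 0.30 TPM in N_GC and 13.9 ± 8.63 TPM in N_I and Prtn3 0.583 ± 0.297 TPM in N_GC and 11.9 ± 6.4 TPM in N_I, with interactions of -0.71 (adjusted p = 0.355) and -0.75 (adjusted p = 0.292) that were not called either. S100a9 averaged 422 ± 216 TPM in N_GC and 2641 ± 1247 TPM in N_I, a difference of -2.61 beside -2.03, with an interaction of 0.58 (adjusted p = 0.401). In the calprotectin and stefin list, 10 of 16 interactions were negative and 2 positive (rescaled: 10 and 0), with -1.38 in S100a6 (adjusted p = 0.000104) and -0.93 in S100a11 (adjusted p = 0.000358). Of 45 mature neutrophil genes, 17 were negative and 5 positive (rescaled: 25 and 1). Csf3r and Cxcr2 differed by -1.54 and -1.61 without tumour, with interactions of 0.40 (adjusted p = 0.422) and 0.10 (adjusted p = 0.856). That an interaction was not called does not show that the differences were equal.

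Secondary and tertiary granule genes were divided, 9 of 31 interactions being negative and 4 positive (rescaled: 10 and 2). Ceacam10 (-1.55, adjusted p = 0.00309) and Pglyrp1 (-1.16, adjusted p = 0.00284) were among the negative ones. In 3 of the positive ones the difference was larger without tumour than with it. Ngp averaged 27 ± 14.4 TPM in N_GC and 618 ± 423 TPM in N_I, a difference of -4.19 beside -1.85 with tumour and an interaction of 2.34 ± 0.77 (SE, adjusted p = 0.0253). Ltf averaged 8.32 ± 3.36 TPM in N_GC and 185 ± 123 TPM in N_I, with an interaction of 2.13 (adjusted p = 0.031), and Camp 9.37 ± 5.66 TPM in N_GC and 216 ± 144 TPM in N_I, with 2.75 (adjusted p = 0.0133). In all 3 every T_GC library stood above the means of both groups without tumour. Lipg and Prok2 of the mature neutrophil list and Nos2 of the suppressor-cell list were near 0 without tumour. Lipg averaged 0.05 ± 0.0173 TPM in N_GC and 0.1 ± 0.01 TPM in N_I, Prok2 0.00333 ± 0.00577 TPM in N_GC and 0.0333 ± 0.0289 TPM in N_I and Nos2 0.09 ± 0.0755 TPM in N_GC and 0.0967 ± 0.0862 TPM in N_I. Their interactions of -3.93, -3.72 and -3.08 (adjusted p = 7.79e-07, 8.6e-06 and 4.79e-05) rest on values near 0, where log2(TPM + 1) compresses any difference. Of 12 eosinophil genes, 8 interactions were negative and 1 positive (rescaled: 9 and 0). Prg2 and Ear6, at 2.32 ± 0.451 TPM in N_GC and 6.83 ± 3.62 TPM in N_I for Prg2 and 2.03 ± 0.723 TPM in N_GC and 3.9 ± 1.02 TPM in N_I for Ear6, had interactions of -2.37 (adjusted p = 0.00136) and -2.75 (adjusted p = 0.000147).

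Several resident macrophage genes, and Stab2 of the sinus endothelium, had differences of opposite sign with and without tumour. Of 33 red pulp macrophage genes, 30 had a positive interaction and none a negative one (rescaled: 23 and 0), and of 12 marginal zone macrophage genes 10 and 1 (rescaled: the same). Spic averaged 52.1 ± 6.0 TPM in N_GC and 84 ± 15.5 TPM in N_I, a log2 difference of -0.67 beside 2.21 with tumour, and the interaction was 2.88 (adjusted p = 1.62e-06). Stab2 (2.84, adjusted p = 7.79e-07), Marco (2.88, adjusted p = 3.55e-05) and Nr1h3 (3.47, adjusted p = 0.000587) shared that pattern. Slc40a1, not called with tumour in TPM as deposited, averaged 102 ± 10.1 TPM in N_GC and 196 ± 68.3 TPM in N_I and had an interaction of 1.21 (adjusted p = 0.00205). Ifit3 averaged 6.35 ± 2.29 TPM in N_GC and 16.7 ± 7.35 TPM in N_I, with an interaction of 3.48 (adjusted p = 5.18e-05). Positive interactions stood in 36 of 39 B cell genes (rescaled: 28), 48 of 54 T cell genes (rescaled: 44) and 15 of 17 class II genes (rescaled: 15). Negative ones numbered 1, 0 and 0 (rescaled: 2, 2 and 0). Without tumour, T cell genes took, of all TPM, 0.629% ± 0.0139 in N_GC and 0.492% ± 0.0617 in N_I, with no overlap. B cell genes took 2% ± 0.065 in N_GC and 1.91% ± 0.0589 in N_I, and class II genes 1.76% ± 0.0991 in N_GC and 1.68% ± 0.0505 in N_I. Cr2 averaged 297 ± 53.1 TPM in N_GC and 249 ± 18.6 TPM in N_I, Cd4 114 ± 9.25 TPM in N_GC and 88.6 ± 14.6 TPM in N_I and H2-Aa 2685 ± 142 TPM in N_GC and 2702 ± 115 TPM in N_I, log2 differences of 0.24, 0.37 and -0.01. Their interactions were 2.62, 1.6 and 1.91, all called (adjusted p = 7.13e-06, 6.37e-05 and 7.11e-06), and the T_GC means of these 3 genes lay between those of T_I and of the N groups.

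**Figure D5:**
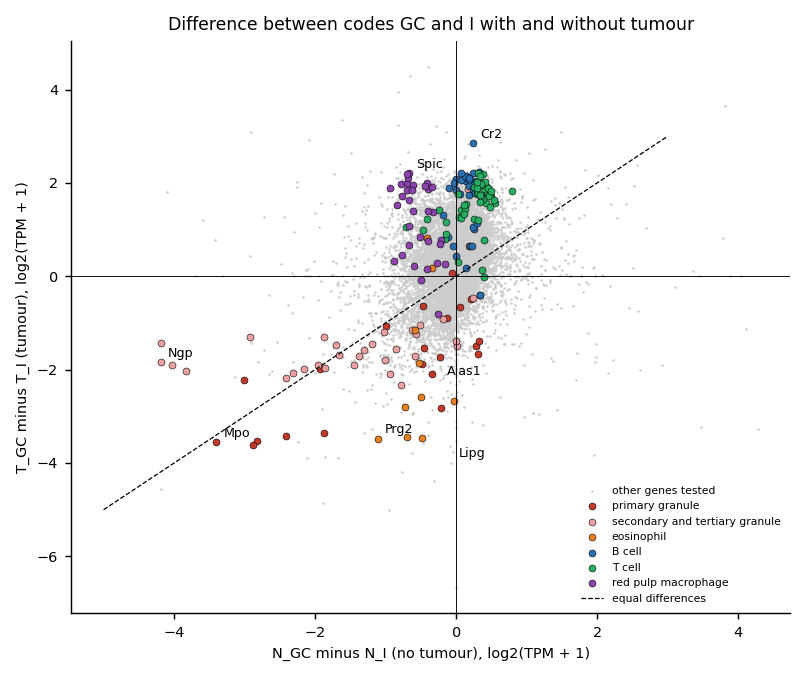
Difference between codes GC and I with tumour (y axis, T_GC minus T_I) against that without tumour (x axis, N_GC minus N_I), both log2(TPM + 1), 1 point a gene, with the line of equal differences dashed. Mpo, Elane and Prtn3 lie near the line and Ngp above it, with log2 differences of -1.85 on the y axis and -4.19 on the x axis, and B cell, T cell and red pulp macrophage genes high on the y axis near or left of 0 on the x axis. The N_GC means of Mpo, Elane and Prtn3 were under 1 TPM, where log2(TPM + 1) understates their differences on the x axis.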

How the data were processed

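Splenocyte RNA of 18 libraries (6 groups of 3: codes GC, I and P, with and without T in the title) was sequenced on a NovaSeq after RNeasy extraction and SMARTER library preparation, per the labels' protocols. The authors deposited 1 table of TPM values per gene; fastp, RSEM and GRCm39 are named, without versions, in the submitters' processing notes. TPM keeps no read depth, so no count test or counting interval was made, and precision rests on the 3 libraries of each group. Of 56876 rows, 1462 had no Ensembl ID and 3843 had no gene symbol of their own.

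Genes that reached 1 TPM in 3 or more of the 18 libraries were fitted as log2(TPM + 1) with limma 3.58.1 (R 4.3.3; trended empirical Bayes) over all 18 libraries with 6 group means and 12 residual degrees of freedom, and p-values were adjusted over all 16635 genes by Benjamini-Hochberg; every adjusted p is from limma. The fit was tested on simulated data. Median-of-ratios scaling divided each library by the median of its ratios to the gene-wise geometric mean over all 18 libraries. Shares of a list were compared by an exact two-sided permutation test. Named are the 15 largest rises and falls among called genes without overlap and whose higher group averaged 10 TPM or more (no predicted genes, pseudogenes, unannotated transcripts or receptor segments), up to 6 members per list and direction with the smallest p, up to 4 uncalled members per list with the highest TPM, the 10 interactions with the smallest p, and a panel of marker genes; the text describes some of them, and a few are not reported here. The genes and the 42 lists were chosen with earlier results of these data known. The 15 alternatives were a pseudocount of 0.1, no filter or a filter of 5 TPM, 3 scalings, only the 6 libraries compared, group weights, robust empirical Bayes and leaving out each of the 6 libraries. For the interaction, each N_GC and N_I library was left out in turn as well. Python 3.11.15 with pandas 2.3.3, numpy 2.4.6, scipy 1.17.1 and matplotlib 3.10.9 did the rest. Promoters came from RefSeq's GRCm38.p6. Libraries of code P entered the filter, the fit and the scaling factors and are not analysed here.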

Additional observations from a re-analysis of the deposited data

Results flagged for a closer look

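The difference between codes GC and I differed with tumour from that without it in 5564 genes upward and 1153 downward (limma interaction, adjusted p under 0.05; 33.4% and 6.93% of the genes tested). After median-of-ratios scaling the counts were 2341 upward and 3194 downward (14.1% and 19.2%), and 2805 and 2268 without the neutrophil genes. The 10 with the smallest p in TPM are given here. Cd83, a marker of mature dendritic cells and activated B cells, was at 70, 68.1 and 60.9 TPM in T_GC, against 16, 17.9 and 17.5 TPM in T_I and averaged 87.8 ± 4.82 TPM in N_GC and 94.7 ± 4.25 TPM in N_I, an interaction of 2.0 ± 0.12 (SE, adjusted p = 4.7e-07). Ablim1, an actin-binding protein of lymphocytes, had an interaction of 2.01, Fyn, a kinase of T cell receptor signalling, of 1.88, Grap2, an adaptor of that pathway, of 1.69, and Rftn1, a lipid raft protein of B cells, of 1.67. Further positive values were 1.78 for Filip1l, 1.68 for Bcar3 and 1.47 for H2-T22, a class I gene with close copies. The 2 negative ones were Alas1 (-1.99; 40.5 ± 2.37 TPM in N_GC and 47.7 ± 0.435 TPM in N_I) and Arhgdib (-1.11), a regulator of small GTPases in blood cells that was at 1262, 1388 and 1352 TPM in T_GC, against 2677, 2754 and 2561 TPM in T_I.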

How the results depend on the processing

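The number of genes called depended most on scaling. Median-of-ratios scaling gave 3851 higher and 4695 lower, and TPM recomputed without the 116 neutrophil genes 4933 higher and 3574 lower, against 8109 and 2115 as deposited; the interaction counts became 2341 and 3194, and 2805 and 2268, against 5564 and 1153. TPM without haemoglobin, receptor, ribosomal and mitochondrial genes gave 9634 higher and 1597 lower, with interactions of 7871 and 795. A fit of the 6 libraries compared, without the spread of the other groups, gave 6728 higher and 1711 lower. Leaving out 1 T_GC or T_I library at a time gave 7087 to 8230 higher and 1876 to 2178 lower genes. With 1 such library left out, the interactions were 4859 to 6123 higher and 1013 to 1254 lower. Neutrophil shares were then 6.23 to 7.62% in T_GC and 25.2 to 25.9% in T_I. With N libraries left out, the interactions reached down to 4738 higher (without N_I 92) and 997 lower (without N_I 18). Of 198 named genes tested, 167 kept direction and call in every alternative that gave them a value, and 138 had a value in all. Under median-of-ratios scaling the sign turned in Car2 (-0.43), Ctsc (-0.40), Pf4 (-0.027), Cx3cr1 (-0.083), S100a4 (-0.23) and Slc40a1 (-0.15), and without the neutrophil genes in Car2 (-0.28). Without 1 library the differences lay between -0.32 and 0.31 for Car2, -0.0088 and 0.23 for Ctsc, -0.97 and 0.23 for Ighg1, -0.32 and 0.11 for Pcna, and -0.087 and 0.052 for Spn. Pcna was 0.069, Itgal 0.039 and Spn 0.15 without haemoglobin, receptor, ribosomal and mitochondrial genes. None of these genes was called in TPM as deposited, and S100a4 (0.43) and Slc40a1 (0.51) were called higher without haemoglobin, receptor, ribosomal and mitochondrial genes. The causes were not tested. No paired analysis was possible because T_GC and T_I share no replicate numbers. TPM keeps no read depth, so what depth limits cannot be stated.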

Other observations

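Some genes with the largest rises belong to none of the groups described. Inpp4b, a phosphatase of phosphoinositides, was at 29.5, 24.2 and 30.5 TPM in T_GC, against 4.01, 5.34 and 4.56 TPM in T_I (difference 2.37 ± 0.16), and Ablim1 at 103, 89.8 and 95.4 TPM in T_GC, against 19.1, 17.1 and 21.1 TPM in T_I (2.28 ± 0.09). Scml4, a polycomb-like protein, rose by 2.23 ± 0.18, and Ell3, an elongation factor of B cells, by 2.23 ± 0.15. Ephx1, microsomal epoxide hydrolase, was at 76.2, 71.2 and 74.4 TPM in T_GC, against 11.3, 16.3 and 18.2 TPM in T_I, a rise of 2.23 ± 0.15. Cntn5, a neural adhesion molecule, was at 8.22, 20.2 and 34.6 TPM in T_GC, against 2.08, 2.62 and 2.46 TPM in T_I, with a rise of 2.5 ± 0.77 whose call was lost without T_GC 37 (2.05). The groups of these 6 genes did not overlap.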
